A study of Homo sapiens with 9 samples.

Results

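Heat shock proteins, chaperonins and BAG cochaperones were followed across 3 human breast cell lines as a set of 36 genes chosen by symbol. Earlier results of these data were known when the set was chosen, so its shares beside all genes describe the set and carry no test. Each gene was read from 1 probe set, the one with the highest mean over the 9 arrays among those annotated to that gene alone. In this way 32 of the 36 were measured, out of 19775 genes on the array, and all 32 exceeded the filter on dim genes and were tested. HSPA8 and TCP1 are listed on probe sets shared with other genes only, and no value was assigned to them. AHSA1 and HSF2 were not analysed here. The lines, all derived from the breast epithelial line MCF-10A, were MIV (MCF-10A1a, the metastatic carcinoma), MIII (MCF-10A1h, the carcinoma) and MII (MCF-10AT1Kcl2, the carcinoma in situ), with 3 Affymetrix arrays each. All 3 were grown without a treatment in DMEM/F12 with horse serum, insulin, cholera toxin, epidermal growth factor and hydroxycortisone, and total RNA was hybridised. As background, these lines descend from MCF-10A cells transformed with activated HRAS. Each disease state was represented by 1 line, so line and state cannot be told apart. The labels call the arrays biological replicates without naming separate cultures, so each p-value reflects array-to-array spread, part of which may be technical.

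Chaperones keep new and stressed proteins folded. HSP70 proteins bind hydrophobic stretches of a client in a cycle driven by ATP. J-domain proteins deliver the client and start ATP hydrolysis, and nucleotide exchange factors such as HSP110 and BAG proteins release it. HSP90 matures kinases and steroid receptors, chaperonins enclose a client in a ring, and small heat shock proteins hold unfolding proteins for refolding. Heat shock factor 1 (HSF1) drives many of these genes after heat and other protein stress by binding heat shock elements, in which the unit nGAAn repeats in alternating direction.

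Values are MAS5 signals, the brightness of a probe set on a linear scale, which the deposited table holds with every array at a trimmed mean of 500.07. Changes are differences of log2(signal + 18.3), which understate the change of dim genes. A gene was called at a limma adjusted p under 0.05 (Benjamini-Hochberg over the 12594 genes tested) with a change of at least 2-fold. Median signals were 64.7 to 65.2 in MIV, 72.1 to 74.9 in MIII and 69.0 to 71.7 in MII. The bioB hybridisation control stood apart on MIV replicate 3, with a mean of 3133 against 1001 to 1523 on the other 8 arrays. The ratio of the 3′ to the 5′ GAPDH control, a sign of RNA quality, was 1.045 to 1.095 in MIV, 0.974 to 0.988 in MIII and 1.059 to 1.165 in MII. The epithelial markers KRT5, KRT14, KRT8, KRT18, CDH1 and EPCAM exceeded the pooled median signal of 69.3 on all 9 arrays, while KRT17 and TP63 were not used here.

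Of the 32 members, 8 were called in a comparison, 14 differed by less than 25% in all 3, and the others lay between. BAG2 was much higher in MIV and in MIII than in MII. HSPA2, CRYAB and DNAJB6 were lowest in MIV, and HSPA13, HSPB8, DNAJB4 and DNAJB5 were highest in MIII. A second, dimmer HSPB8 probe set was not highest in MIII. These 8 are 25% of the members, and 18.9% of all genes tested were called in at least 1 comparison. HSPB8 is counted among the 8, although it met the filter on dim genes through its MIII arrays alone. It is also in the counts below for the comparisons with MIII. In MIV against MIII, 1 member was called higher and 6 lower, 21.9% of the 32, beside 12.7% of all genes (4.95% higher and 7.79% lower). In MIV against MII, 2 were called higher and 3 lower, 15.6% beside 8.14% (2.96% higher and 5.18% lower). In MIII against MII, 4 were called higher and 0 lower by limma, 12.5% beside 11.7% (6.17% higher and 5.55% lower). At an unadjusted p under 0.05 of any size, 9 members were lower there, beside 27.7% of all genes, and the furthest was HSPA4L at -0.87. Without MIV replicate 3, on which bioB stood apart, the members called numbered 6 in MIV against MIII and 5 for MIV over MII.

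Small differences were frequent. Members with a limma adjusted p under 0.05 at any size numbered 8 higher and 13 lower in MIV against MIII, 65.6% beside 51.9% of all genes (25.3% higher and 26.6% lower). In MIV against MII they numbered 6 higher and 13 lower, 59.4% beside 42.2% (20.0% higher and 22.2% lower). For MIII over MII they numbered 8 higher and 9 lower, 53.1% beside 47.2% (22.9% higher and 24.3% lower). The 3 arrays of one line did not overlap those of the other for 9 members higher and 14 lower in MIV against MIII, 71.9% beside 58.8% (28.4% higher and 30.4% lower). The same count was 7 higher and 16 lower in MIV against MII, 71.9% beside 50.7% (23.7% higher and 27.1% lower), and 8 higher and 13 lower for MIII over MII, 65.6% beside 55.3% (26.7% higher and 28.6% lower). The median change of the members was -0.08 for MIV over MIII, -0.10 for MIV over MII and -0.07 for MIII over MII, where all genes had -0.01, -0.03 and -0.02. The 14 members within 25% are 43.8% of the set, beside 32.4% of all genes. The members were bright, with a median signal of 5853 against 737.7 for all genes, and their log2 changes had a median standard error of 0.056 against 0.11. The part of brightness in the shares above was not tested. Each pair of comparisons shares the arrays of 1 line.

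**Figure D1:**
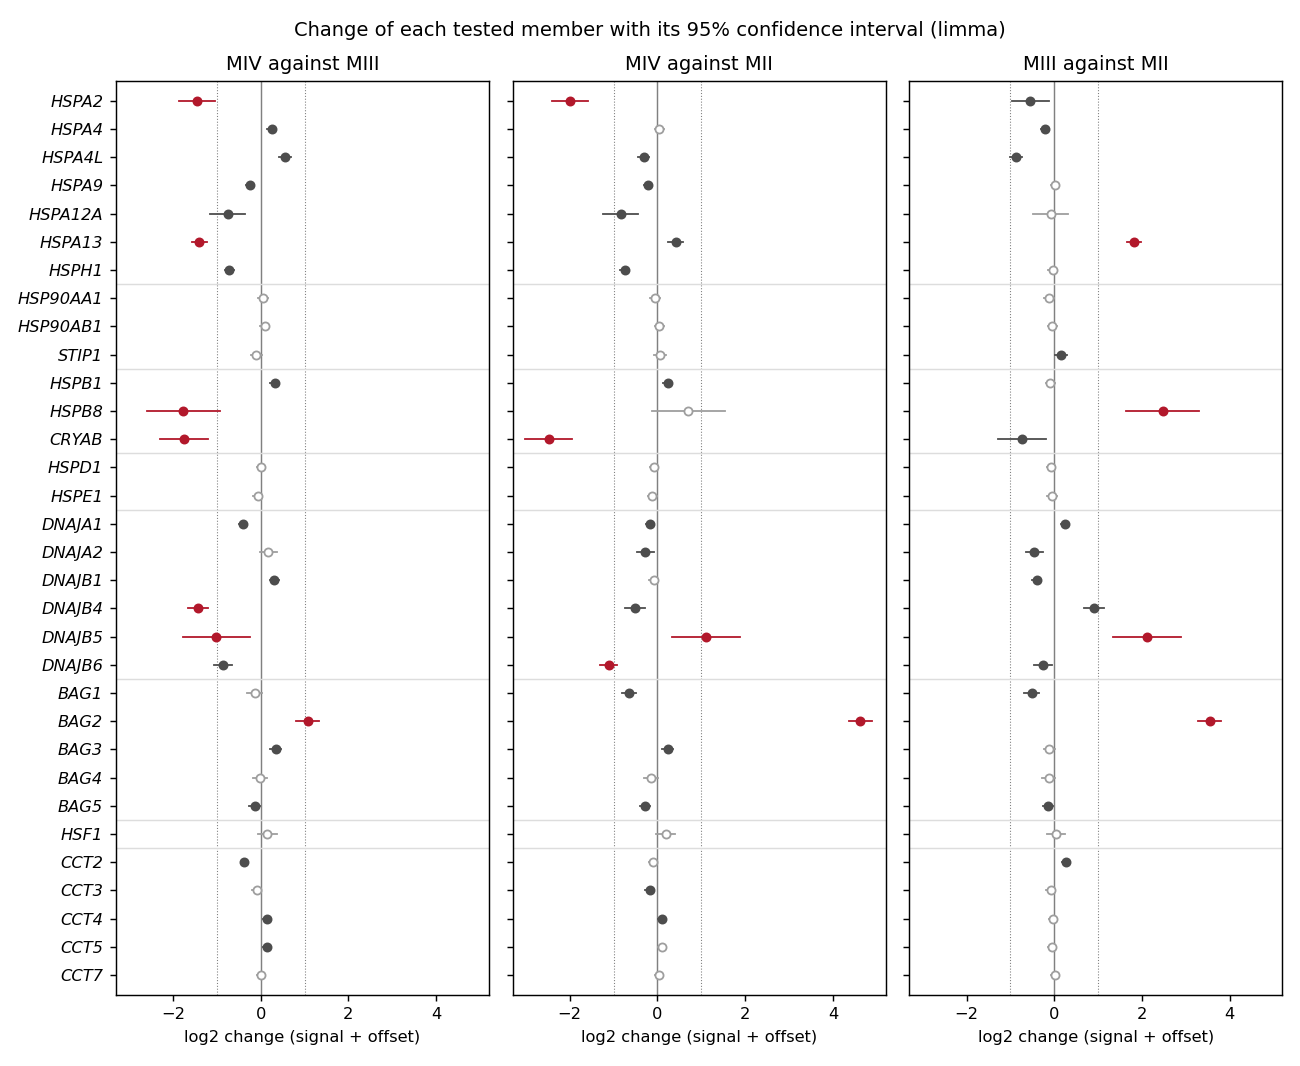
Log2 change of each of the 32 tested members (points) with its 95% confidence interval (lines) in MIV against MIII, MIV against MII and MIII against MII, grouped by role. Red marks called members, filled dark points an adjusted p under 0.05 short of 2-fold, open points neither, and dotted lines 2-fold; BAG2 lies far to the right at 4.62 and 3.54 in the comparisons with MII.

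Promoters are shown for 5 members because the heat shock element is the regulatory sequence this set is known for, with HSP90AA1 and HSPD1 from the members not called and BAG2, HSPB8 and DNAJB6 from those called. All 5 hold a match to the pattern given below, and members without a match are not shown. The windows are from RefSeq (GRCh38.p14) and run from 250 bases before to 50 after an annotated transcript start, which need not be the outermost start of the gene. They were used for 29 of the 32 members, all but CRYAB, HSF1 and BAG4. A gene can have several annotated starts: HSP90AA1 and HSPD1 have 2 windows each, of which the one with matches is shown and the other holds none. The windows shown lie at chr14:102086995-102087294 (minus strand, HSP90AA1), chr2:197499791-197500090 (minus strand, HSPD1), chr6:57172076-57172375 (plus strand, BAG2), chr12:119178681-119178980 (plus strand, HSPB8) and chr7:157336754-157337053 (plus strand, DNAJB6). Each is printed 5′ to 3′ on the strand of its gene. Capitals mark GAANNTTC or TTCNNGAA, 2 neighbouring units of the element, which read the same on both strands; neighbouring matches can overlap.
HSP90AA1: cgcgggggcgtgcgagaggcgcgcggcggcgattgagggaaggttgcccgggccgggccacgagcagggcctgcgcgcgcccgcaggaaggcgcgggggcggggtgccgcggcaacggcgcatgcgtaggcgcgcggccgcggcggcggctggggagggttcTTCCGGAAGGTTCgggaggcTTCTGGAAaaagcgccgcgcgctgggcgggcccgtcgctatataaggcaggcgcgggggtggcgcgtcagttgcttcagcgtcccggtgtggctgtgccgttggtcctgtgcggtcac
HSPD1: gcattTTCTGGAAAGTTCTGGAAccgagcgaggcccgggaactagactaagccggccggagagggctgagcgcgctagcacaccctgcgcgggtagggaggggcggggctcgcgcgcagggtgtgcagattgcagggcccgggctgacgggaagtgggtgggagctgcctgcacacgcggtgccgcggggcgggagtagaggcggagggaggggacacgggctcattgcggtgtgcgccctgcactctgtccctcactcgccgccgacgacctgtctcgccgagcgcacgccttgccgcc
BAG2: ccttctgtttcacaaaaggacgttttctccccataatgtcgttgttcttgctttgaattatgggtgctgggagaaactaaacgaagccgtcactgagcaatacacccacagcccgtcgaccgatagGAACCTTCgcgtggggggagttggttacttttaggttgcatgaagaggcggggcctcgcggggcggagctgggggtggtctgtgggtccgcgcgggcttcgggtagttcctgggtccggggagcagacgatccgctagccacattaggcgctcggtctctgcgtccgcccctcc
HSPB8: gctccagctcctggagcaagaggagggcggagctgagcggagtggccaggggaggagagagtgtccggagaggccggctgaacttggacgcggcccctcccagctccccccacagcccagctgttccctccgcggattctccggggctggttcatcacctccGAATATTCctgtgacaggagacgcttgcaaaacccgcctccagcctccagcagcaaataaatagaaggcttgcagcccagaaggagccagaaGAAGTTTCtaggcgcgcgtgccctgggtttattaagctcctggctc
DNAJB6: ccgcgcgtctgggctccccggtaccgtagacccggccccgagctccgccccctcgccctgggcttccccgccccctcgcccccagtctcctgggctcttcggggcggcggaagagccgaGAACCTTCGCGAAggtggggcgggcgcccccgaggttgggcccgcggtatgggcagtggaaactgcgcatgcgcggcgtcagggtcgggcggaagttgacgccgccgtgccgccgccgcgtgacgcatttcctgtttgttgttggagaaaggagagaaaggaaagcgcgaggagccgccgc
The first match began 88 bases before the start of the window's transcript in HSP90AA1, 245 in HSPD1, 124 in BAG2, 88 in HSPB8 and 131 in DNAJB6. HSP90AA1 and HSPD1 had 3 matches each, HSPB8 and DNAJB6 had 2 each and BAG2 had 1. Over the 29 members with a window, 16 of 43 windows (37.2%) held such a match, as did 13.49% of all 35116 windows, from which no chromosome was left out. A run of 3 units, which is either pattern followed by NN and then GAA or TTC in alternation, searched after the first counts were seen, was in 5 of 43 (11.6%) and in 0.49% of all windows, and its genes were DNAJA1, DNAJB6, HSP90AA1, HSP90AB1 and HSPD1. Counted by gene, 4 of 7 called members with a window held the 2-unit match, and 11 of 22 of the others. Over all windows, 4417 of 27305 genes held it. The called members without it were HSPA2, HSPA13 and DNAJB5, and HSPH1, HSPE1 and BAG3 were among the others without it. A match describes letters and not binding, and these counts carry no test.

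HSP90, its adaptor and the mitochondrial chaperonin differed by less than 25% in all 3 comparisons. None of these 5 members was called by limma. On the brightest probe sets, an unadjusted p under 0.05 was seen for 0 of the 5 in MIV against MIII, beside 56.4% of all genes. It was seen for HSPE1 alone in MIV against MII, beside 48.8%, and for STIP1 alone in MIII against MII, beside 53.3%. The smallest limma adjusted p belonged to STIP1, which links HSP70 to HSP90, at 0.15 ± 0.06 in MIII against MII (adjusted p = 0.0491). HSP90AA1, the stress-inducible cytosolic HSP90, had signals of 44546, 40199 and 47199.7 in MIV, 42019.7, 42840.3 and 41723 in MIII and 44381, 45179 and 47157 in MII. The arrays of MIV overlapped those of both other lines, while those of MIII lay below those of MII. Its change was 0.06 (95% interval -0.06 to 0.17) in MIV against MIII, -0.05 (95% interval -0.17 to 0.06) for MIV over MII and -0.11 (95% interval -0.23 to 0.00) for MIII over MII. The constitutive form HSP90AB1 had 0.09 (95% interval -0.01 to 0.19), 0.04 (95% interval -0.06 to 0.14) and -0.05 (95% interval -0.15 to 0.05) in the same comparisons, and its MIII arrays also lay below those of MII. Its other probe sets were higher in MIV against MIII, at 0.26 ± 0.08 and 0.17 ± 0.06 (limma adjusted p = 0.019 and 0.024 over all probe sets tested). Another HSP90AA1 probe set had -0.15 ± 0.04 in MIII against MII (0.0134), and the remaining HSP90AA1 probe sets had no adjusted p under 0.05. HSPD1, the HSP60 subunit of the mitochondrial ring, had signals of 41067, 38849 and 42388 in MIV, 40432, 40532 and 40661 in MIII and 43064, 41748 and 43555 in MII. They spanned 93.9% to 105% of their mean, and those of HSPE1, the lid of that ring, 92% to 107% of theirs. HSPD1 had a change of 0.01 (95% interval -0.08 to 0.10) in MIV against MIII, -0.07 (95% interval -0.16 to 0.02) for MIV over MII and -0.08 (95% interval -0.17 to 0.01) for MIII over MII, where again the arrays did not overlap. HSPE1 had -0.11 ± 0.05 in MIV against MII, with a limma adjusted p of 0.0794.

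HSF1 had signals of 1186, 1119.7 and 988 in MIV, 1026, 1006 and 917 in MIII and 991, 835 and 1061 in MII. The arrays of the 3 lines overlapped, and its change was 0.15 (95% interval -0.06 to 0.37) in MIV against MIII, 0.19 (95% interval -0.02 to 0.40) in MIV against MII and 0.04 (95% interval -0.18 to 0.25) in MIII against MII. A second HSF1 probe set gave 0.41 ± 0.11 in MIV against MII (limma adjusted p = 0.0104 over all probe sets tested).

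The CCT subunits form the cytosolic chaperonin that folds actin and tubulin. None of the 5 tested was called by limma in any comparison, while 3 had an unadjusted p under 0.05 in MIV against MIII (56.4% of all genes), 4 for MIV over MII (48.8%) and 1 for MIII over MII (53.3%). Of the 3 in MIV against MIII, 2 were higher and 1 lower. CCT2 had the smallest p, with signals of 18325, 17467 and 18443 in MIV, 23673, 23188 and 23283 in MIII and 19675, 18916 and 19616 in MII. Its MIII arrays lay above all others, with -0.37 ± 0.04 in MIV against MIII (limma adjusted p = 3.4e-06) and 0.27 ± 0.04 in MIII against MII (8.2e-05). CCT4 was slightly higher in MIV, by 0.14 ± 0.04 against MIII (0.0112) and 0.11 ± 0.04 against MII (0.041), and CCT5 by 0.15 ± 0.04 against MIII (0.00924). CCT3 was slightly lower in MIV than in MII, at -0.18 ± 0.05 (0.00785). CCT7 spanned 95.2% to 103% of its mean, with changes of 0.01, 0.03 and 0.02 in the 3 comparisons.

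**Figure D2:**
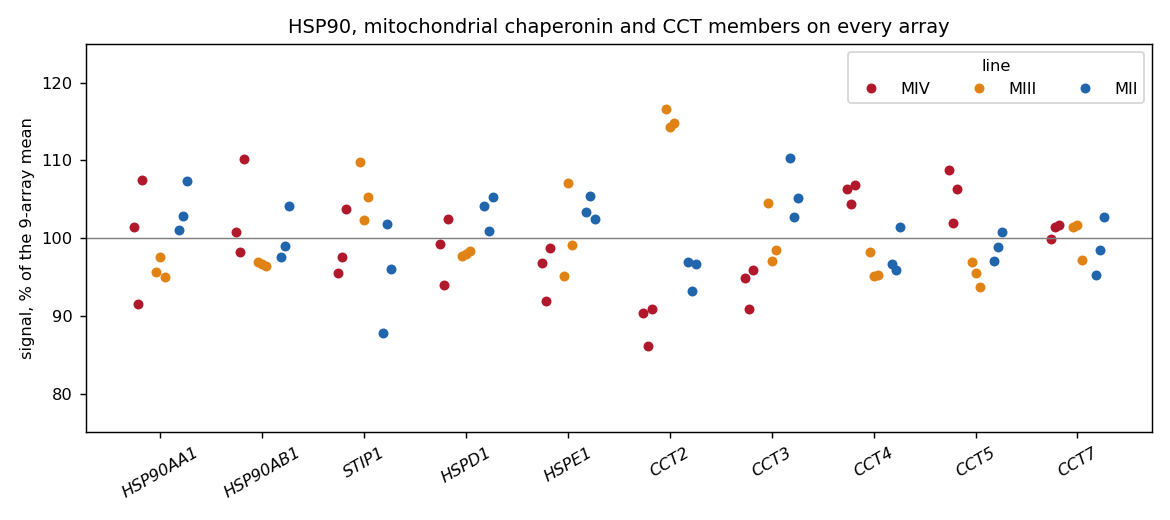
Signal on each array as a percentage of the gene's mean over the 9 arrays, for HSP90AA1, HSP90AB1, STIP1, HSPD1, HSPE1 and 5 CCT subunits, with the arrays of MIV, MIII and MII marked by line. All points lie between 86.1% and 117% of the mean, and both ends belong to CCT2, whose MIII arrays form the highest group.

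Among the HSP70 and HSP110 proteins, HSPA13 and HSPA2 were called. HSPA13, an HSP70 of the microsomes that lacks the usual substrate-binding domain, had signals of 773, 840.0 and 854 in MIV, 2143, 2062 and 2401 in MIII and 619.8, 613 and 602 in MII. The MIII arrays were far above the others, and MIV lay slightly above MII without overlap. HSPA13 fell by 1.40 ± 0.08 on the log2 scale in MIV against MIII (limma adjusted p = 3.57e-09), rose by 1.81 ± 0.08 in MIII against MII (2.42e-10) and had 0.42 ± 0.08 in MIV against MII (0.00069), short of 2-fold. Its other probe set had the same signs at smaller size, -0.52 ± 0.10 in MIV against MIII and 0.66 ± 0.10 in MIII against MII.

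HSPA2, an HSP70 that mouse sperm formation requires, had signals of 55.0, 45.2 and 78.1 in MIV, 198, 170.3 and 207 in MIII and 274, 289 and 299 in MII. MIV was lowest and MII highest without overlap, and 2 of the 3 MIV arrays were below the pooled median of 69.3. HSPA2 fell by 2.00 ± 0.19 on the log2 scale in MIV against MII (limma adjusted p = 1.71e-06) and by 1.45 ± 0.19 in MIV against MIII (2.12e-05). In MIII against MII it had -0.54 ± 0.19 (0.0315), short of 2-fold.

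The other HSP70 and HSP110 members stayed under 2-fold. HSPH1, the main cytosolic HSP110, had signals of 5737, 5984 and 5757 in MIV, 9612, 9786 and 9306 in MIII and 9327, 9845 and 10252 in MII. The MIV arrays were below all others, at -0.71 ± 0.05 against MIII (limma adjusted p = 2.6e-08) and -0.75 ± 0.05 against MII (2.83e-08), and its other 2 probe sets both had -0.73 in MIV against MIII. HSPA4L, an HSP110 relative, was lowest in MIII, at 0.56 ± 0.06 in MIV against MIII and -0.87 ± 0.06 in MIII against MII, but its other probe set had the opposite signs, -0.29 and 0.15. HSPA4, also of this group, had 0.25 ± 0.05 in MIV against MIII, and of its other 3 probe sets 1 had the opposite sign (-0.74). HSPA9, the HSP70 of mitochondria, was lower in MIV, at -0.24 ± 0.04 against MIII and -0.22 ± 0.04 against MII. HSPA12A, a distant HSP70 relative, had -0.75 ± 0.18 and -0.83 ± 0.18 there, with signals of 108, 115 and 132 in MIV, 217, 208 and 206 in MIII and 299, 192 and 196 in MII. Its MIV arrays were all below those of both other lines, which overlapped.

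Of the small heat shock proteins, CRYAB and HSPB8 were called and HSPB1 was not. CRYAB is alpha-B crystallin, a chaperone of the lens and of muscle that basal-like breast tumours also express. Its signals were 38.0, 118 and 66.1 in MIV, 253, 261 and 306 in MIII and 441, 523 and 435 in MII. The lines did not overlap, and the MIV arrays spread widely around the pooled median. CRYAB fell by 2.48 ± 0.25 on the log2 scale in MIV against MII (limma adjusted p = 2.86e-06) and by 1.75 ± 0.25 in MIV against MIII (4.69e-05), and had -0.73 ± 0.25 in MIII against MII (0.0273).

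HSPB8, which works with BAG3 in selective autophagy, had signals of 47.1, 16.5 and 61.8 in MIV, 171, 169 and 183 in MIII and 3.6, 30.4 and 21.2 in MII. Every MIV and MII array was below the pooled median and every MIII array above it. HSPB8 therefore met the filter through the MIII arrays alone, the line where it is high, and had to differ, so its p-values below describe it and add no support. HSPB8 fell by 1.76 ± 0.39 on the log2 scale in MIV against MIII (limma adjusted p = 0.00162) and rose by 2.47 ± 0.39 in MIII against MII (0.000122), while MIV against MII gave 0.70 ± 0.39 (0.168), which became a call at 1.06 without MIV replicate 2. A second, dimmer HSPB8 probe set had signals of 78.0, 68.8 and 71.3 in MIV, 9.7, 16.9 and 44.2 in MIII and 32.1, 12.9 and 89.2 in MII. It was called higher in MIV against MIII, at 1.20 ± 0.46 (limma adjusted p = 0.0442 over all probe sets), and had -0.49 ± 0.46 in MIII against MII, both opposite in sign to the first probe set. In MIV against MII it had 0.72 ± 0.46, the same sign, so the direction of HSPB8 depended on the probe set in the comparisons with MIII. HSPB1, or HSP27, had signals of 20628, 20013 and 20338 in MIV, 17217, 15877 and 15669 in MIII and 16661, 17388 and 17848 in MII. Its MIV arrays were above all others, by 0.32 ± 0.05 against MIII (limma adjusted p = 5.1e-05) and 0.23 ± 0.05 against MII (0.00119), well short of 2-fold.

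Among the J-domain proteins, DNAJB4, DNAJB5 and DNAJB6 were called. DNAJB4 and DNAJB5 were both highest in MIII, and DNAJB6 was highest in MII. DNAJB4, a cytosolic relative of DNAJB1, had signals of 311, 366 and 319 in MIV, 842, 999.8 and 922 in MIII and 507, 502 and 437 in MII. The lines did not overlap, with MIII highest and MIV lowest. DNAJB4 fell by 1.42 ± 0.11 on the log2 scale in MIV against MIII (limma adjusted p = 8.19e-08), and had 0.91 ± 0.11 in MIII against MII (8.16e-06) and -0.52 ± 0.11 in MIV against MII (0.00149). Its other probe set was also called lower in MIV against MIII, at -1.03 ± 0.17.

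DNAJB6, which holds back aggregation of polyglutamine proteins, had signals of 477, 536 and 477 in MIV, 808, 949.9 and 987 in MIII and 1082, 1111 and 1091 in MII. MIV was clearly apart at the low end, while MIII and MII lay closer together without overlap. DNAJB6 fell by 1.11 ± 0.09 on the log2 scale in MIV against MII (limma adjusted p = 3.39e-07). Its changes of -0.86 ± 0.09 in MIV against MIII (2.72e-06) and -0.26 ± 0.09 in MIII against MII (0.031) were short of 2-fold.

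DNAJB5, a further J-domain protein of this class, had signals of 88.6, 159 and 90.2 in MIV, 277, 249 and 194 in MIII and 82.1, 45.8 and 14.1 in MII. MIII was highest, and the arrays within each line spread widely. DNAJB5 rose by 2.11 ± 0.36 in MIII against MII (limma adjusted p = 0.00024) and by 1.10 ± 0.36 in MIV against MII (0.0241), and fell by 1.01 ± 0.36 on the log2 scale in MIV against MIII (0.0295). The call in MIV against MIII was lost without MIV replicate 1 (-0.88), MIV replicate 3 (-0.89), MIII replicate 1 (-0.91) or MIII replicate 2 (-0.98). The call in MIV against MII was lost without MIV replicate 2 (0.86) or MII replicate 3 (0.66).

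The remaining J-domain members stayed under 2-fold on their brightest probe sets. DNAJB1, or HSP40, a classical heat shock gene and partner of cytosolic HSP70, had signals of 6726, 6359 and 6409.6 in MIV, 5012, 5477 and 5179.8 in MIII and 7026, 6633 and 7078 in MII. MIII was lowest, with 0.31 ± 0.05 in MIV against MIII (limma adjusted p = 0.000135) and -0.40 ± 0.05 in MIII against MII (1.6e-05). DNAJA1, an HSP70 partner at mitochondrial import, was highest in MIII, with -0.40 ± 0.04 in MIV against MIII and 0.24 ± 0.04 in MIII against MII. Its other probe set had the same signs and was called lower in MIV against MIII, at -1.09 ± 0.06. DNAJA2, a further HSP70 partner of the cytosol, was highest in MII, with -0.28 ± 0.09 in MIV against MII (0.0224) and -0.45 ± 0.09 for MIII over MII (0.000755).

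BAG2 had the largest change of the set. It binds HSP70 and inhibits CHIP, the ubiquitin ligase that sends HSP70 clients to the proteasome. Its signals were 3343, 3264 and 3105 in MIV, 1519, 1491 and 1564 in MIII and 144, 118 and 87.1 in MII, with means of 3237 ± 122 in MIV, 1525 ± 37.1 in MIII and 116 ± 28.3 in MII (SD, n = 3 each). The lines formed 3 separate levels, highest in MIV and lowest in MII, an order with no overlap that 2.66% of all genes tested also had. BAG2 rose by 4.62 ± 0.12 in MIV against MII (24.6-fold, limma adjusted p = 4.27e-12), by 3.54 ± 0.12 in MIII against MII (11.6-fold, 2.72e-11) and by 1.08 ± 0.12 in MIV against MIII (2.11-fold, 5.24e-06). Both other BAG2 probe sets were called higher in MIV against MII (2.13 ± 0.32 and 1.65 ± 0.20) and in MIII against MII (1.77 ± 0.32 and 1.23 ± 0.20). In MIV against MIII they had 0.35 ± 0.32 and 0.42 ± 0.20 (limma adjusted p = 0.402 and 0.102), and with the mean of all its probe sets BAG2 was at 0.98, just short of 2-fold.

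None of the other 4 BAG genes was called on its brightest probe set. BAG1, which couples HSP70 to the proteasome, had signals of 1285, 1503 and 1322 in MIV, 1542, 1443 and 1514 in MIII and 2211, 2294 and 1963 in MII. MII was above both other lines, with -0.65 ± 0.08 in MIV against MII (limma adjusted p = 1.56e-05) and -0.52 ± 0.08 in MIII against MII (8.75e-05). Another BAG1 probe set was called lower in both, at -1.07 ± 0.11 and -1.48 ± 0.11. BAG3, the stress-inducible cochaperone of selective autophagy, was higher in MIV by 0.35 ± 0.06 against MIII (0.000181) and 0.23 ± 0.06 against MII (0.00563). BAG5, an inhibitor of parkin, had 3 separate levels with MIV lowest, at -0.29 ± 0.05 in MIV against MII (0.000684). BAG4, the silencer of death domains, had no adjusted p under 0.05, with -0.02, -0.15 and -0.13 in the 3 comparisons.

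**Figure D3:**
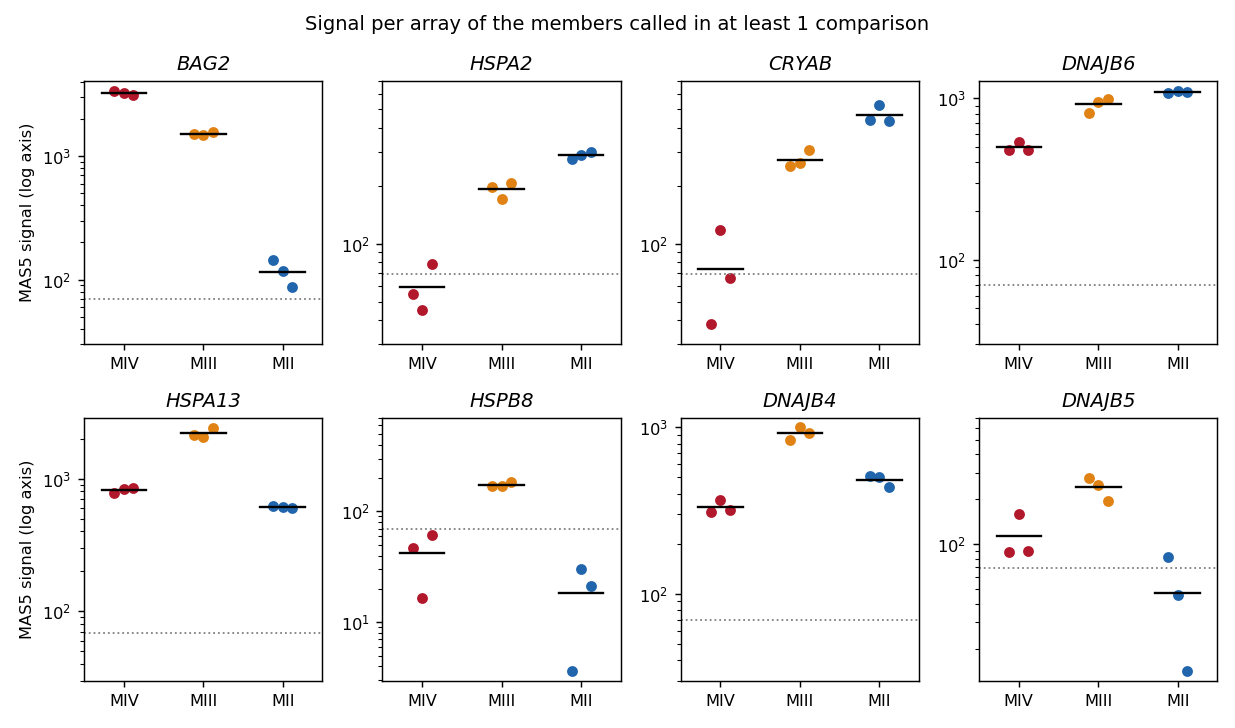
MAS5 signal on each array (points, log axis) and mean of each line (bars) for the 8 called members in MIV, MIII and MII, with 3 arrays a line; the dotted line is the pooled median of 69.3. BAG2 is highest in MIV, HSPA2, CRYAB and DNAJB6 are lowest in MIV, and HSPA13, HSPB8, DNAJB4 and DNAJB5 are highest in MIII.

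Set out by the order of the 3 lines with no overlap between arrays, 4 members (12.5%) had MIV lowest and MII highest, beside 3.06% of all genes tested. These were HSPA2, CRYAB, DNAJB6 and BAG5. The opposite order, with MIV highest and MII lowest, was that of BAG2 alone (3.12%, beside 2.66%). MIII was above both other lines for 6 members, HSPB8 among them (18.8%, beside 18.0%), and below both for 5 (15.6%, beside 17.2%). The shares with MIII at either end were thus near those of all genes. Where the other lines overlapped, MIV was above both for HSPB1, BAG3 and CCT4 (9.38%, beside 6.21% of all genes). It was below both for HSPA9, HSPA12A, HSPH1 and CCT3 (12.5%, beside 6.26%). MII was above both for DNAJA2 and BAG1 (6.25%, beside 5.72%) and below both for 0 members (beside 4.06%). The remaining 7, HSP90AA1, STIP1, HSPD1, HSPE1, BAG4, HSF1 and CCT7, had no such order, as had 36.8% of all genes.

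Several members had other probe sets that moved differently. Of 71 probe sets annotated to the members alone, 67 were tested. In MIV against MIII, 4 of the 7 called members had another tested probe set, and for 3 of these all had the same sign, HSPB8 being the exception. Members not called also had dimmer probe sets that were called. For HSPD1 a further probe set had -1.03 ± 0.22 in MIV against MIII (limma adjusted p = 0.00139), and for CCT5 one had -1.12 ± 0.16 there (5.66e-05) and -1.06 ± 0.16 in MIV against MII (0.000159). HSPA2, CRYAB and DNAJB6 have 1 probe set each and could not be compared in this way.

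**Figure D4:**
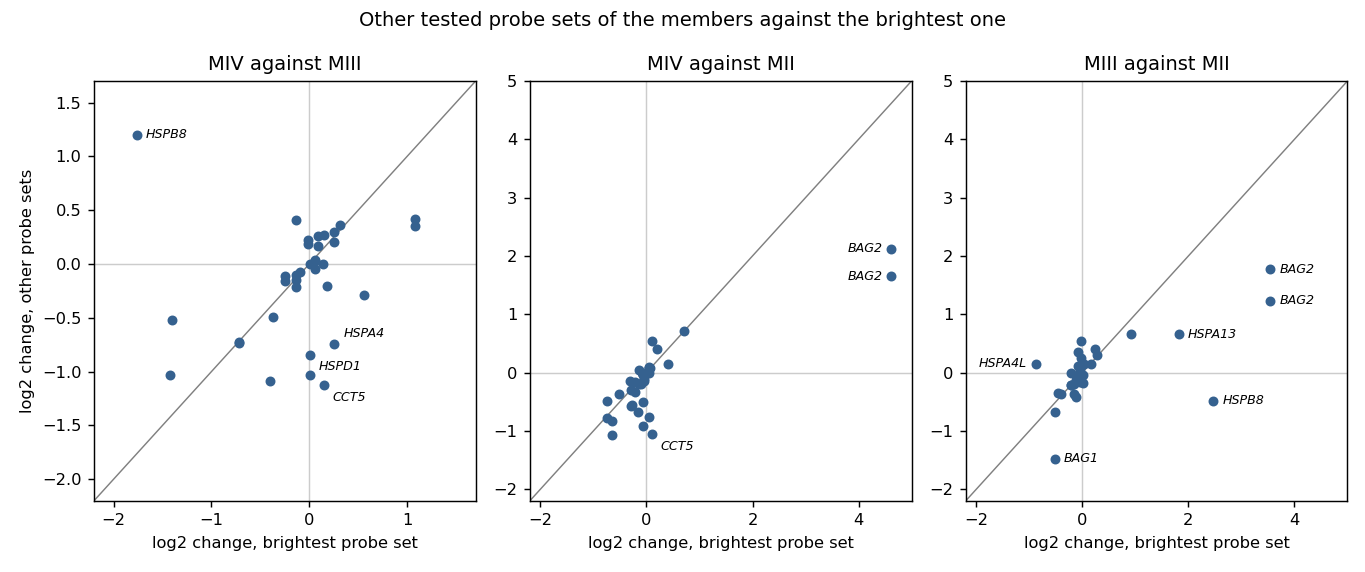
Log2 change of the members' other tested probe sets (vertical axis) against that of the brightest probe set (horizontal axis) in the 3 comparisons. Named points lie far from the line of equality; HSPB8 has -1.76 and 1.20 in MIV against MIII, and HSPD1 and CCT5 lie near 0 across and below -1 down in that comparison.

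Chaperone genes outside the set were taken from lists by role. Of 18 further J-domain genes, DNAJC12 was the one called, in MIV against MIII and in MIII against MII. That is 5.56% of the list in each, beside 12.7% and 11.7% of all genes. In MIV against MII 0 were called, beside 8.14%. DNAJC12 binds the aromatic amino acid hydroxylases and had signals of 112, 113 and 80.6 in MIV, 802, 729 and 753 in MIII and 259, 204 and 172 in MII. MIII was far above both, and DNAJC12 fell by 2.71 ± 0.17 on the log2 scale in MIV against MIII (limma adjusted p = 1.01e-08) and rose by 1.78 ± 0.17 in MIII against MII (8.34e-07). Of 12 endoplasmic reticulum chaperones, SERPINH1, the collagen chaperone HSP47, was the one called, with signals of 2196, 2248 and 2369 in MIV, 8158, 8552 and 7516 in MIII and 3687, 2999 and 3102 in MII. It was highest in MIII, fell by 1.82 ± 0.08 on the log2 scale in MIV against MIII (1.73e-10) and rose by 1.31 ± 0.08 in MIII against MII (6.16e-09). This 1 gene is 8.33% of the list in those 2 comparisons, beside 12.7% and 11.7% of all genes. In MIV against MII 0 of the 12 were called, beside 8.14%. At an adjusted p under 0.05 of any size, the endoplasmic reticulum list had 0 higher and 9 lower of 12 in MIV against MIII (all genes 25.3% higher and 26.6% lower), with medians of -0.39 for the list and -0.01 for all genes. It had 0 higher and 6 lower in MIV against MII (20.0% and 22.2% of all genes) and 7 higher and 1 lower in MIII against MII (22.9% and 24.3%).

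No gene of the other lists was called by limma in the 3 comparisons, and each is given by its smallest p in MIV against MIII, where 25.3% of all genes were higher and 26.6% lower at an adjusted p under 0.05. The 19 further cochaperones had 3 higher and 7 lower at an adjusted p under 0.05, led by FKBP5 (-0.83 ± 0.05), a partner of HSP90 in steroid receptor complexes. The 5 prefoldin subunits, which deliver actin and tubulin to CCT, had 2 higher and 2 lower, led by PFDN5 (-0.70 ± 0.05). The 7 mitochondrial chaperones had 1 higher and 1 lower, led by TRAP1 (0.31 ± 0.06), the HSP90 of mitochondria. The 5 further HSP70 and CCT genes had 3 higher and 0 lower, led by HSPA14 (0.25 ± 0.07). Of 6 further small heat shock proteins, none was tested.

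Of 8 fibroblast markers, 3 stood far above the other lines in MIII. HSPA13, HSPB8, DNAJB4 and DNAJB5 were also highest there on their brightest probe sets. The 3 markers were COL3A1, THY1 and DCN, whose mean signals on the MIII arrays were 653, 995 and 2511. FAP was highest in MII, with means of 390.4 in MIV, 405 in MIII and 678 in MII, and COL1A1 had 223 in MIV, 213 in MIII and 243 in MII. Of the 8 fibroblast markers, 2 exceeded the pooled median on all MIV arrays, 5 on all MIII arrays (COL1A1, COL3A1, THY1, DCN and FAP) and 3 on all MII arrays. Their summed signal was 779.9 to 855.5 in MIV, 4701 to 4999 in MIII and 1125 to 1174 in MII, while COL1A2, PDGFRA and PDGFRB were below the pooled median on all MIII arrays. The summed signal of the 6 epithelial markers was 108207 to 118334 in MIV, 65747 to 66858 in MIII and 109294 to 114456 in MII. These 6 did not move alike. In the order MIV, MIII and MII, CDH1 had mean signals of 7288, 1305 and 12055, and EPCAM 18773.5, 3737 and 17233. KRT14 had 137, 957 and 2155, and KRT5 25069, 26308.5 and 25794. KRT8 had 21158, 10820 and 18172, and KRT18 42465, 23075 and 36196. Of 6 genes listed as leukocyte markers, CD14, CD3E, PTPRC and HBB were measured, of which HBB is a red blood cell gene. These 4 had sums of 466.8 to 558.6 in MIV, 738.9 to 843.2 in MIII and 1623 to 1827 in MII. CD14 was the largest part of each sum, with mean signals of 323 in MIV, 594 in MIII and 1490 in MII. In the same order CD3E had 80.6, 60.0 and 92.5, HBB 84.5, 97.1 and 100.1, and PTPRC 15.7, 28.3 and 13.3. For CD3E, HBB and PTPRC the arrays of the lines overlapped, and PTPRC was below the pooled median on every array. Of the RNA quality controls, the GAPDH ratio was lowest in MIII and the 3′ to 5′ ACTB ratio in MIV, at 1.116 to 1.15 in MIV, 1.166 to 1.235 in MIII and 1.203 to 1.249 in MII. The part of these markers and of RNA quality in the differences of HSPA13, HSPB8, DNAJB4 and DNAJB5 was not tested. In bulk RNA, fewer cells of a type and less RNA per cell cannot be told apart.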

How the data were processed

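Total RNA of 3 cell lines, 3 arrays each, was hybridised as biotin-labelled cRNA. The deposited table holds intensity values made by the authors with MAS5, per the submitters' processing notes, whose version is not given in the sources used here. From the values, every array has a trimmed mean of 500.07. Of 54675 probe sets, 62 are controls, 41091 have 1 gene in the platform annotation, 1801 have several and 11721 have none. A gene was its probe set with the highest mean, and was tested where at least 3 of 9 arrays exceeded the pooled median of 69.3, which left 12594 of 19775 genes. log2(signal + 18.3), the offset being the pooled 25th percentile, was fitted as line means with limma 3.58.1 under R 4.3.3, letting the variance prior follow intensity, and 6 residual degrees of freedom, on all 9 arrays. Other probe sets were fitted in the same way, with p-values adjusted over all probe sets tested. The fit was tested on simulated data. An exact permutation test of 3 against 3 arrays cannot go below 0.1 and was not used. The number of arrays limits the precision.

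The members and lists were chosen with earlier results of these data known. Members called in any comparison are given on every array, and for other role groups the member with the smallest adjusted p; values of the remaining members are added so that all are accounted for. From outside lists only called genes, or the one with the smallest p, are named. Alternatives covered the offset, normalization, filter, variance trend, choice of probe set, fold minimum, arrays in the fit, a replicate block and each array left out.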

Additional observations from a re-analysis of the deposited data

How the results depend on the processing

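Counts of members called under the other settings stayed within 1.5 times of 7 (MIV against MIII), 5 (MIV against MII) and 4 (MIII against MII), with these exceptions. A filter at the pooled 75th percentile removed HSPA2, CRYAB, HSPB8, DNAJB5 and HSPA12A from the test. Of the 27 members still tested, 3, 2 and 2 were called in that order. Of all genes, 893, 535 and 810 were called, against 1604, 1025 and 1476 in the main fit. These are 10.7%, 6.43% and 9.74% of the genes tested under this filter. The shares of members called were then close to those of all genes. A 1.5-fold minimum gave 10, 8 and 7 of the 32 members, and 3241, 2137 and 2854 of all genes (25.7%, 17% and 22.7%). With the mean of all probe sets, 4 members were called in MIV against MIII, and with the offset at the pooled median 681 of all genes in MIV against MII. HSPB8 turned round on its suffix-free probe set, to 1.20 in MIV against MIII and -0.49 in MIII against MII; the cause was not tested. Its call in MIV against MIII was lost with the mean of its probe sets (-0.64). DNAJB5 lost its call in MIV against MIII under both other offsets, quantile normalization, no filter, no trend and the mean of probe sets, and in MIV against MII under the offset at the pooled median, no trend, the mean of probe sets and the 2 lines alone. With each array left out in turn, the members called ranged from 6 to 7 in MIV against MIII, from 4 to 5 in MIV against MII and from 4 to 4 in MIII against MII.

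With the replicate number as a block, 7, 5 and 4 members were called. Deviations of same-numbered arrays from their line means correlated between -0.04 and 0.04, so the numbers gave no sign of pairing. For the 8 called members over the 3 comparisons, 137 of the values with an array left out kept direction and side of the threshold, 6 lost the call and 1 gained it. Under the other settings 238 kept both, 12 lost the call and 2 reversed. Dim signals limit HSPB8, DNAJB5, HSPA2 and CRYAB, whose lowest lines lie near or below the pooled median.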
